A study of Mus musculus with 12 samples.

Results

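The set described here holds 44 genes for extracellular matrix proteins other than collagens, for the enzymes and inhibitors that build, crosslink and remodel that matrix, and for contractile and mesenchymal cell markers. The members are a list of gene symbols, chosen with earlier results of these data known, and each was found as 1 locus of the deposited files, by its own symbol or, for Loxl3, inside the merged name Aup1,Loxl3. These 44 loci are among 23136 named loci and 27914 loci in all. Of the 44, 42 passed the filter on low values (at least 1 FPKM in at least 3 of the 12 libraries) and were tested among 12320 loci. The levels are FPKM, fragments scaled for transcript length and library size, so they are per length and can be compared between genes.

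Polyadenylated RNA was measured in 12 libraries of mouse pluripotent cells of strain C57 Bl/6J, with 3 libraries in each of 4 groups. There were 3 groups of embryonic stem cells (ESC): wild type (WT ESC), knockout of Sirt1 (Sirt1KO), and the same knockout combined with knockdown of Otx2 (Sirt1KO Otx2KD). These ESC were kept in the naive state on plates coated with 0.1% gelatin, in N2B27 medium without serum. The medium held LIF and blockers of MEK (PD0325901 at 1 uM) and GSK3 (CHIR99021 at 3 uM). Wild-type epiblast-like cells (EpiLC) were made from such ESC on fibronectin in 48 h, with 1% KOSR (a serum replacement), Activin A at 20 ng/ml and Fgf2 at 12 ng/ml. The series sets the change from naive ESC to primed-like EpiLC beside the changes seen when Sirt1 is lost and when Otx2 is then knocked down. Sirt1 encodes an NAD-dependent deacetylase and Otx2 a homeobox factor of the epiblast after implantation. The labels do not say which part of Sirt1 is deleted, how Otx2 was knocked down, how many clones were used, or whether replicates are separate cultures, so p-values measure only the spread between these libraries. No control for the knockdown procedure in Sirt1KO cells is among the 4 groups. EpiLC differ from WT ESC in substrate and medium as well as in state, which cannot be told apart.

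The extracellular matrix is the network of secreted proteins and proteoglycans around cells. Collagen and elastic fibres give it strength and recoil, lysyl oxidases crosslink them, small proteoglycans set the size of collagen fibrils, and matricellular proteins tune how cells attach and signal. Metalloproteinases cut the matrix and tissue inhibitors (Timp genes) hold them in check. Fibroblasts and smooth muscle cells are the main makers of this matrix in the body, while the matrix of the early embryo is mostly basement membrane.

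The targeted genes and the cultures were checked first. Sirt1 stood at 25.8, 25.4 and 26.2 FPKM in WT ESC and 15.3, 15.3 and 15.7 in Sirt1KO (log2 -0.70 ± 0.04, limma, Benjamini-Hochberg adjusted p = 5.76e-09), and Otx2 went from 34.2, 24.6 and 22.2 in Sirt1KO to 6.33, 6.27 and 5.61 after its knockdown (log2 -1.96 ± 0.12, adjusted p = 4.13e-08). Transcript from outside the deleted part of Sirt1 would be counted. The files give no counts. Depth relative to WT ESC replicate 1 ranged from 0.767 to 1.33. It was estimated from the most common ratio between values under 0.1 FPKM of the same loci in the 2 libraries. Chromosomes 8 and 11 as a whole differed from WT ESC in the other groups: in Sirt1KO, the median log2 change was 0.46 over 680 loci of chromosome 8 and -0.49 over 1039 of chromosome 11. Mmp2 lies on chromosome 8, and Timp2 and Mfap4 on chromosome 11. The summed level of 8 markers of pluripotent cells, Pou5f1 among them, lay between 1484 and 2144 FPKM in every library. The sum hides changes of single markers. Against WT ESC, 1 rose and 6 fell in EpiLC (log2 -2.47 to 3.45), where 35.8% and 38.8% of all tested loci did. In Sirt1KO 3 rose and 5 fell (log2 -0.70 to 1.68), where 32.4% and 32.7% of all tested loci did. The summed level of 5 EpiLC markers was 738 to 754 FPKM in EpiLC, 29.1 to 32.0 in WT ESC, 145 to 218 in Sirt1KO and 37.4 to 40.4 in Sirt1KO Otx2KD.

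Most of the matrix and mesenchymal genes were low in Sirt1KO ESC and high in Sirt1KO Otx2KD ESC. Against WT ESC, 31 of the 42 tested members fell in Sirt1KO and 4 rose (Ctgf, Cyr61, Mmp2 and Pcolce), where 32.7% of all tested loci fell and 32.4% rose (limma, adjusted p under 0.05). Against Sirt1KO, 37 members rose in Sirt1KO Otx2KD and 2 fell (Cyr61 and Pcolce), beside 31.1% and 31.5% of all loci. The median log2 change of the members was -0.56 in Sirt1KO, against 0.01 over all loci, and 1.10 from Sirt1KO to Sirt1KO Otx2KD, against -0.01. Each log2 change is a difference of log2(FPKM + 1), and for genes with low levels it comes out too small. In RNA of whole cultures, fewer cells of a type and less RNA per cell cannot be told apart.

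Of the 42, 31 members followed the course of a fall in Sirt1KO and a rise from there in Sirt1KO Otx2KD (73.8%), as did 2623 of the 12320 tested loci (21.3%). Both comparisons use the same Sirt1KO libraries, so this count is a description. The course held for 15 members by at least 1 log2 unit each way, and for 272 of all loci (2.21%). These 15 were Lox, Loxl1, Loxl2, Fbn1, Fbln2, Lum, Dcn, Bgn, Thbs1, Tnc, Postn, Timp2, Timp3, Acta2 and S100a4. Their mean levels were between 0.0467 and 0.252 times those of WT ESC in Sirt1KO. From Sirt1KO to Sirt1KO Otx2KD they rose by between 3.45-fold (S100a4) and 94.0-fold (Postn), with a median of 14.5-fold. Among the 100 largest rises of that comparison over the 12320 tested loci, 14 were members (of 42 tested), with Postn ranked 2, Lox 10, Loxl2 12 and Timp2 13.

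Some members could pass the filter only because one group was high. Fbn2, Fbln5 and Pdgfrb reached 1 FPKM in all 3 libraries of Sirt1KO Otx2KD alone, Mfap2 of EpiLC alone and Twist2 of no group. Among the 37 members that did so in 2 or more groups, 27 fell in Sirt1KO and 33 rose in Sirt1KO Otx2KD. Among the 24 that did so in all 4 groups, 15 fell and 20 rose. Shares over all loci held to these same limits are not given here, so these counts have no base beside them. The 2 untested members were near 0: elastin (Eln) stood between 0 and 0.333 FPKM in the 12 libraries, and fibromodulin (Fmod) between 0 and 0.183, with 0 listed in all 6 EpiLC and Sirt1KO libraries. Testing without any filter left the counts at 31 lower in Sirt1KO and 37 higher in Sirt1KO Otx2KD, now of 44. Over all 18586 loci tested that way, 4494 were lower in Sirt1KO than in WT ESC, and 4385 were higher in Sirt1KO Otx2KD than in Sirt1KO.

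**Figure D1:**
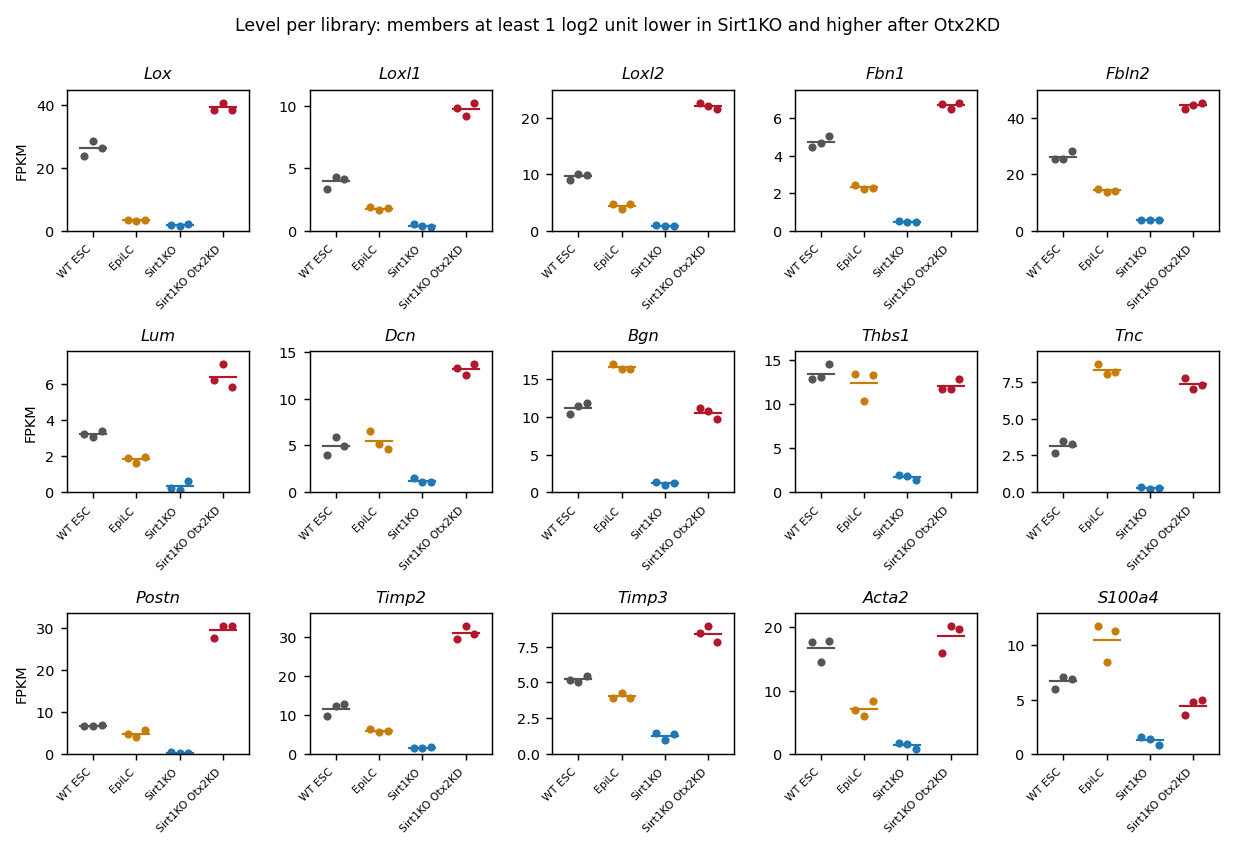
FPKM in each library (points) and group means (lines) for the 15 members that fell in Sirt1KO and rose in Sirt1KO Otx2KD by at least 1 log2 unit each, with a separate linear axis from 0 in each panel. In every panel the 3 Sirt1KO libraries lie below all WT ESC and all Sirt1KO Otx2KD libraries, while the order of EpiLC and WT ESC differs between genes.

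To show what lies before the start sites of members that moved in different ways, promoter sequences were taken from RefSeq (assembly GRCm38.p6, a later build than the mm9 of the deposited files). The table held 33 start sites of 27 of the 44 members. The 250 bases before each start were searched on both strands for the TATA box (TATAAA), an AP-1 motif (TGANTCA), a TEAD motif (GGAATG) and the strict form of the CArG box of serum response factor (CC, then 6 bases that are each A or T, then GG). No mismatch was allowed, so near matches were not counted. The stretches below run 5′ to 3′ on the gene's strand up to the base before the start, with the motifs in capitals. Postn and S100a4 had the largest and the smallest rise among the 15 members above and share the TATA letters near the start. Cyr61, which moved the other way, holds TATA and TEAD letters (CATTCC is GGAATG read on the other strand), and Acta2 holds TEAD letters.
Postn (chr3:54361047-54361106, + strand, the second of 2 starts): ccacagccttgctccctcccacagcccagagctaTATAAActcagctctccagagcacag
S100a4 (chr3:90603710-90603769, + strand): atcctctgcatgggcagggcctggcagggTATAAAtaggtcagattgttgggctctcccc
Cyr61 (chr3:145649986-145650115, - strand): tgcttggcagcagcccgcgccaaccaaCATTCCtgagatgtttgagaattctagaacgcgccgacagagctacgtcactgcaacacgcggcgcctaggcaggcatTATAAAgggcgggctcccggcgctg
Acta2 (chr19:34255374-34255553, - strand): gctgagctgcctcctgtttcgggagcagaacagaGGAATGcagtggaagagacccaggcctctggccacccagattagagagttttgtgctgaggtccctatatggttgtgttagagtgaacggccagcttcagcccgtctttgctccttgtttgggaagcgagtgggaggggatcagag

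The first base of the TATA letters lies 26 bases before the start in Postn, 31 in S100a4 and 25 in Cyr61. TATAAA was found in 8 of the 33 member promoters (24.2%), of Cald1, Cyr61, Postn, S100a4, Thbs2, Tnc and Twist1, and in 12.4% of the 32851 promoters of the table. The 8 count 1 site of Tnc for each of its 2 starts, at -126 and -205. In Thbs2 (-126), Twist1 (-126) and Cald1 (-186) the letters also lie farther from the start than in Postn, S100a4 and Cyr61. The share is thus of letters anywhere in the window, not of TATA boxes placed near the start. GGAATG was found in 5 (15.2%), of Acta2, Cald1, Cyr61, Mfap2 and Timp1, against 12.6% of all promoters. TGANTCA was in 1 member promoter (Cald1, 3.03%) against 6.75%, and the strict CArG form in 0 of 33 against 1.47%. The Acta2 stretch above holds ccctatatgg and ccttgtttgg, which each differ from the strict form by 1 base and so were not counted. These are matches of letters in 1 window, with no measure of binding in these data.

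Lysyl oxidases are copper enzymes that crosslink collagen and elastin after secretion. Of the 5 members, 4 fell in Sirt1KO and rose in Sirt1KO Otx2KD, beside 21.3% of all tested loci. Lox itself (XLOC_011668, mm9 chromosome 18, 52675637 to 52689362) stood at 23.8, 28.6 and 26.3 FPKM in WT ESC, 1.62, 1.37 and 1.96 in Sirt1KO, 38.7, 40.9 and 38.6 in Sirt1KO Otx2KD and 3.47, 2.93 and 3.25 in EpiLC. The 4 groups did not overlap, with Sirt1KO lowest and EpiLC next. The fall in Sirt1KO was log2 -3.36 ± 0.09 (adjusted p = 1.6e-12) and the rise after Otx2 knockdown 3.93 ± 0.09 (adjusted p = 4.29e-13), which left Lox above WT ESC by log2 0.57 ± 0.09. Lox had the 15th largest fall in Sirt1KO among all tested loci.

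Loxl2, which also acts inside cells on nuclear proteins, went from 8.98, 10.1 and 9.88 FPKM in WT ESC to 0.967, 0.764 and 0.806 in Sirt1KO, and stood at 4.76, 3.78 and 4.74 in EpiLC and 22.8, 22.1 and 21.6 in Sirt1KO Otx2KD. Loxl1, the member that crosslinks elastin, gave 3.34, 4.32 and 4.16 in WT ESC, 0.542, 0.369 and 0.272 in Sirt1KO, 9.84, 9.21 and 10.3 in Sirt1KO Otx2KD and 1.88, 1.65 and 1.78 in EpiLC. Both had the same order of groups without overlap: Sirt1KO, EpiLC, WT ESC and Sirt1KO Otx2KD. From Sirt1KO to Sirt1KO Otx2KD, Loxl2 rose by log2 3.65 ± 0.08 and Loxl1 by 2.95 ± 0.10 (adjusted p = 5.12e-13 and 2.57e-11), and both ended above WT ESC (2.30-fold and 2.48-fold). Loxl4 also followed the course but stayed below WT ESC: its means were 2.77 ± 0.169 FPKM in WT ESC, 0.691 ± 0.0460 in Sirt1KO, 1.41 ± 0.0993 in Sirt1KO Otx2KD and 0.150 ± 0.0468 in EpiLC (± SD, n = 3). Loxl3 cannot be read on its own, because its locus is merged with Aup1, a ubiquitin pathway gene. That merged locus stood between 33.9 and 37.0 FPKM in all 9 ESC libraries and fell in EpiLC (log2 -0.31 ± 0.05).

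Elastic fibres are an elastin core on a scaffold of fibrillin microfibrils, to which fibulins, Emilin1 and the Mfap proteins bind. Of the 9 tested members, 6 followed the course (21.3% of all tested loci did), while elastin itself was near 0 in every group. Fibulin 2 (Fbln2, XLOC_020061, chromosome 6, 91162758 to 91222534) was the highest of those with a large change, at 25.4, 25.4 and 28.3 FPKM in WT ESC, 3.72, 3.72 and 3.88 in Sirt1KO, 43.3, 44.7 and 45.5 in Sirt1KO Otx2KD and 15.0, 13.7 and 14.2 in EpiLC. Its replicates lay close together and no groups overlapped. The change was log2 -2.52 ± 0.05 in Sirt1KO (adjusted p = 2.88e-13) and 3.25 ± 0.05 from there to Sirt1KO Otx2KD (adjusted p = 3.45e-14). Fibrillin 1 (Fbn1), the main microfibril protein, followed at a lower level, with 4.45, 4.70 and 5.06 FPKM in WT ESC, 0.516, 0.435 and 0.440 in Sirt1KO, 6.78, 6.49 and 6.84 in Sirt1KO Otx2KD and 2.43, 2.22 and 2.27 in EpiLC. Its fall was log2 -1.97 ± 0.07 and its rise 2.40 ± 0.07 (adjusted p = 4.12e-11 and 1.05e-11).

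The other elastic fibre genes were lower in level or moved less. Fbn2 (the fibrillin of embryonic tissue), Fbln5 (which tethers elastin to cells) and Emilin1 followed the course with means of at most 2.73 FPKM in any group. Fbln5 reached 2.16 ± 0.293 FPKM in Sirt1KO Otx2KD from 0.229 ± 0.0344 in Sirt1KO. Fbln1, at 20.0 ± 1.36 FPKM in WT ESC, fell to 12.3 ± 1.23 in Sirt1KO and came back to 16.1 ± 0.168, which stayed below WT ESC (log2 -0.29 ± 0.07, adjusted p = 0.00374). The microfibril-associated genes Mfap2, Mfap4 and Mfap5 did not pass the test in Sirt1KO (log2 -0.21 ± 0.19, 0.20 ± 0.17 and 0.09 ± 0.16), though Mfap4 passed with chromosome medians removed (0.68) and without WT ESC replicate 1 (0.38). Mfap5 rose in Sirt1KO Otx2KD to 4.16 ± 1.15 FPKM from 2.24 ± 0.314. Mfap4 rose as well (log2 0.55 ± 0.17, adjusted p = 0.0129), a call lost without Sirt1KO Otx2KD replicate 1 (0.46, adjusted p = 0.0539). Mfap2 did not pass in that comparison and was higher in EpiLC than in WT ESC (log2 0.83 ± 0.19, adjusted p = 0.00121).

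The small leucine-rich proteoglycans lumican, decorin and biglycan bind collagen fibrils, and versican (Vcan) is a large hyaluronan-binding proteoglycan. All 4 tested members of this group followed the course, beside 21.3% of all tested loci. They split on where EpiLC and Sirt1KO Otx2KD stood. Biglycan (Bgn, X chromosome) gave 10.4, 11.5 and 11.8 FPKM in WT ESC, 1.42, 1.02 and 1.17 in Sirt1KO, 11.2, 10.8 and 9.73 in Sirt1KO Otx2KD and 17.0, 16.4 and 16.4 in EpiLC. It was highest in EpiLC, and WT ESC and Sirt1KO Otx2KD overlapped. The fall in Sirt1KO (log2 -2.47 ± 0.08, adjusted p = 9.47e-12) and the rise from there (2.39 ± 0.08, adjusted p = 2.14e-11) were thus of similar size, and Sirt1KO Otx2KD did not pass against WT ESC (-0.08 ± 0.08, adjusted p = 0.403).

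Decorin (Dcn), which binds TGF-beta as well as collagen, was at 3.94, 5.93 and 4.98 FPKM in WT ESC, 1.51, 1.09 and 1.13 in Sirt1KO, 13.3, 12.6 and 13.7 in Sirt1KO Otx2KD and 6.57, 5.17 and 4.63 in EpiLC. WT ESC and EpiLC overlapped, Sirt1KO lay below both and Sirt1KO Otx2KD above all other libraries (log2 -1.40 ± 0.13 and 2.66 ± 0.13, adjusted p = 3.8e-07 and 1.05e-09). Its neighbour on chromosome 10, lumican (Lum), had 3.22, 3.05 and 3.38 FPKM in WT ESC, 0.252, 0.132 and 0.638 in Sirt1KO, 6.23, 7.09 and 5.83 in Sirt1KO Otx2KD and 1.91, 1.62 and 1.96 in EpiLC. Lum moved like Lox in the order of its groups, with a rise of log2 2.48 ± 0.12 after Otx2 knockdown (adjusted p = 1.14e-09). Versican had its highest level in WT ESC: 29.9, 28.0 and 28.0 FPKM there, 5.83, 6.74 and 6.64 in Sirt1KO, 12.8, 11.9 and 12.1 in Sirt1KO Otx2KD and 9.49, 9.91 and 9.73 in EpiLC. It regained less than the other proteoglycans (log2 -2.00 ± 0.06 in Sirt1KO and 0.85 ± 0.06 from there) and stayed below WT ESC (log2 -1.16 ± 0.06, adjusted p = 2.96e-09).

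Adhesive and matricellular proteins link matrix to cell surface receptors, mostly integrins. Of 9 tested members, 6 followed the course and 8 rose from Sirt1KO to Sirt1KO Otx2KD, beside 21.3% and 31.1% of all tested loci. Periostin (Postn, XLOC_015227, chromosome 3, 54165029 to 54194981), a matricellular protein of bone and healing tissue whose promoter is shown above, gave 6.65, 6.68 and 6.82 FPKM in WT ESC, 0.394, 0.254 and 0.291 in Sirt1KO, 27.5, 30.4 and 30.4 in Sirt1KO Otx2KD and 4.77, 3.95 and 5.67 in EpiLC. The groups were apart, with Sirt1KO lowest, EpiLC next and Sirt1KO Otx2KD far above WT ESC. The fall was log2 -2.56 ± 0.09 (adjusted p = 4.13e-11), the rise 4.53 ± 0.09 (adjusted p = 2.93e-13), and Sirt1KO Otx2KD exceeded WT ESC by 1.98 ± 0.09 (adjusted p = 1.71e-09).

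Tenascin C (Tnc), a large glycoprotein of embryonic and healing tissue, was at 2.67, 3.44 and 3.28 FPKM in WT ESC, 0.356, 0.192 and 0.309 in Sirt1KO, 7.74, 6.99 and 7.29 in Sirt1KO Otx2KD and 8.68, 8.03 and 8.13 in EpiLC. EpiLC and Sirt1KO Otx2KD were both above WT ESC in all 3 libraries, and Sirt1KO was below all others. Its changes were log2 -1.68 ± 0.09 in Sirt1KO, 2.70 ± 0.09 from there and 1.17 ± 0.09 in EpiLC (adjusted p = 1.12e-09, 2.14e-11 and 2.19e-08). Thrombospondin 2 (Thbs2), an inhibitor of vessel growth, had the same pattern at lower levels, with means of 1.38 ± 0.220, 0.247 ± 0.0460, 3.29 ± 0.376 and 3.73 ± 0.0631 FPKM in the same order. Thrombospondin 1 (Thbs1), an activator of latent TGF-beta, gave 12.9, 13.1 and 14.6 FPKM in WT ESC, 1.94, 1.80 and 1.45 in Sirt1KO, 11.8, 11.7 and 12.9 in Sirt1KO Otx2KD and 13.5, 10.4 and 13.4 in EpiLC. Here only Sirt1KO stood apart (log2 -2.41 ± 0.10, adjusted p = 8.97e-11), and the libraries of the other groups overlapped.

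Fibronectin (Fn1) was the member with the highest level and changed by less than 1 log2 unit in each comparison. Its means were 220.3 ± 12.4 FPKM in WT ESC, 161 ± 7.73 in Sirt1KO, 218 ± 1.78 in Sirt1KO Otx2KD and 128 ± 3.62 in EpiLC. Fn1 followed the course (log2 -0.45 ± 0.04 and 0.43 ± 0.04), and Sirt1KO Otx2KD overlapped WT ESC. Its largest change was the fall in EpiLC (log2 -0.77 ± 0.04, adjusted p = 1.14e-09). Igfbp7, a secreted protein that binds insulin-like growth factors, stood at 3.47, 2.75 and 4.35 FPKM in WT ESC, 2.49, 2.44 and 2.82 in Sirt1KO, 6.36, 7.10 and 7.90 in Sirt1KO Otx2KD and 1.70, 1.37 and 1.70 in EpiLC. WT ESC and Sirt1KO overlapped, and the fall in Sirt1KO (log2 -0.32 ± 0.12, adjusted p = 0.0273) was lost in 4 of 12 fits that left out 1 library (without WT ESC replicate 1 or 3 or Sirt1KO replicate 1 or 2, the largest adjusted p = 0.146 without WT ESC replicate 3). The rise in Sirt1KO Otx2KD was log2 1.18 ± 0.12 (adjusted p = 1.29e-06). The Igfbp7 locus is 1.66 times as long as the RefSeq gene and overlaps Polr2b, so its value may hold reads of both.

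The other 3 adhesive and matricellular members did not follow the course. Tgfbi, named for its induction by TGF-beta, gave 1.80, 1.58 and 1.73 FPKM in WT ESC, 1.72, 2.17 and 2.00 in Sirt1KO, 6.72, 5.78 and 6.45 in Sirt1KO Otx2KD and 0.705, 0.569 and 0.900 in EpiLC. WT ESC and Sirt1KO overlapped (log2 0.13 ± 0.09, adjusted p = 0.243) and Sirt1KO Otx2KD stood above every other library (log2 1.30 ± 0.09 against Sirt1KO, adjusted p = 4.91e-08). Ctgf, a target of YAP and TEAD, had 52.0, 57.1 and 56.3 FPKM in WT ESC, 59.8, 61.9 and 64.5 in Sirt1KO, 102, 113 and 106 in Sirt1KO Otx2KD and 15.6, 14.1 and 14.9 in EpiLC. It rose a little in Sirt1KO (log2 0.17 ± 0.05, adjusted p = 0.0108), a call lost without WT ESC replicate 1 (0.13, adjusted p = 0.0535), and rose further in Sirt1KO Otx2KD (0.78 ± 0.05, adjusted p = 2.17e-08).

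Its relative Cyr61 (RefSeq symbol Ccn1), another YAP and TEAD target, moved in the other direction. Cyr61 levels were 32.6, 33.0 and 37.2 FPKM in WT ESC, 54.8, 53.0 and 51.4 in Sirt1KO, 38.0, 43.8 and 42.2 in Sirt1KO Otx2KD and 12.0, 10.3 and 13.0 in EpiLC. No groups overlapped, Sirt1KO was highest and EpiLC lowest. Cyr61 rose in Sirt1KO (log2 0.62 ± 0.08, adjusted p = 7.8e-06) and fell from there in Sirt1KO Otx2KD (log2 -0.36 ± 0.08, adjusted p = 0.00113).

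Among metalloproteinases and their inhibitors, all 5 rose from Sirt1KO to Sirt1KO Otx2KD and 3 followed the course, beside 31.1% and 21.3% of all tested loci. Timp2 (XLOC_004514, chromosome 11, 118162375 to 118216725), an inhibitor that also takes part in activating Mmp2, stood at 9.80, 12.3 and 12.7 FPKM in WT ESC, 1.44, 1.45 and 1.80 in Sirt1KO, 29.4, 32.8 and 30.8 in Sirt1KO Otx2KD and 6.42, 5.63 and 5.80 in EpiLC. No groups overlapped. The fall was log2 -2.29 ± 0.09 (adjusted p = 8.97e-11), larger than the chromosome 11 median of -0.49, and the rise 3.64 ± 0.09 (adjusted p = 1.67e-12), where that median was 0.07. The Timp2 locus overlaps Cep295nl, and the counting is not stated to use strand. Timp3, which stays bound to the matrix, had 5.19, 5.06 and 5.44 FPKM in WT ESC, 1.43, 0.960 and 1.37 in Sirt1KO, 8.46, 8.95 and 7.82 in Sirt1KO Otx2KD and 3.94, 4.25 and 3.93 in EpiLC. Its groups kept the order Sirt1KO, EpiLC, WT ESC and Sirt1KO Otx2KD, with a rise of log2 2.07 ± 0.09 (adjusted p = 2.67e-10). The Timp3 gene lies inside Syn3, and the deposited locus spans 9.17 times the length of the RefSeq Timp3 gene, so part of the value may come from Syn3.

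Timp1, the inhibitor with the highest level, gave 57.1, 53.9 and 61.9 FPKM in WT ESC, 50.5, 50.2 and 54.2 in Sirt1KO, 62.2, 63.5 and 65.9 in Sirt1KO Otx2KD and 19.9, 24.4 and 25.5 in EpiLC. EpiLC stood apart below all ESC (log2 -1.28 ± 0.08, adjusted p = 3.89e-09), while the ESC groups lay within 50.2 to 65.9 FPKM. Timp1 did not pass in Sirt1KO (log2 -0.15 ± 0.08, adjusted p = 0.0954), though it did when only those 2 groups were fitted (adjusted p = 0.0389), with a replicate block (0.0433) and without EpiLC replicate 1 (0.0202). Its locus spans 15.8 times the RefSeq gene and overlaps Syn1. Mmp2, which cuts basement membrane collagen, gave 1.74, 2.30 and 2.20 FPKM in WT ESC, 3.26, 2.48 and 3.04 in Sirt1KO, 4.98, 4.09 and 5.69 in Sirt1KO Otx2KD and 11.3, 10.3 and 10.4 in EpiLC. It was highest in EpiLC (log2 1.93 ± 0.11, adjusted p = 1.34e-09; the chromosome 8 median was 0.40). The rise of Mmp2 in Sirt1KO (log2 0.35 ± 0.11, adjusted p = 0.0122) turned to -0.11 (adjusted p = 0.408) once chromosome medians were removed, and was lost without WT ESC replicate 1 (0.27, adjusted p = 0.0593) or Sirt1KO replicate 1 (0.29, adjusted p = 0.0523). Mmp14, the membrane-bound protease that activates Mmp2, followed the course with means of 8.72 ± 0.380, 7.10 ± 0.658, 14.8 ± 0.961 and 10.7 ± 0.224 FPKM in the same order.

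Of the 2 genes for collagen processing, Serpinh1, the collagen chaperone of the endoplasmic reticulum, followed the course by small steps. Its means were 79.7 ± 2.52 FPKM in WT ESC, 67.4 ± 3.48 in Sirt1KO (log2 -0.24 ± 0.04) and 88.1 ± 1.30 in Sirt1KO Otx2KD (log2 0.38 ± 0.04). Pcolce, which enhances the removal of procollagen ends, gave 48.8, 54.5 and 57.2 FPKM in WT ESC, 64.3, 66.8 and 76.6 in Sirt1KO, 49.0, 52.0 and 47.9 in Sirt1KO Otx2KD and 13.0, 13.4 and 14.1 in EpiLC. Sirt1KO was highest, WT ESC and Sirt1KO Otx2KD overlapped, and EpiLC was lowest. Pcolce thus rose in Sirt1KO (log2 0.37 ± 0.07, adjusted p = 0.000318) and fell from there (log2 -0.47 ± 0.07, adjusted p = 4.31e-05), like Cyr61.

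Contractile and mesenchymal genes mark smooth muscle cells, myofibroblasts and migrating mesenchyme. Of 8 tested members, 7 followed the course, beside 21.3% of all tested loci. Smooth muscle actin (Acta2, XLOC_012536, chromosome 19, 34315581 to 34329826) gave 17.6, 14.5 and 17.8 FPKM in WT ESC, 1.68, 1.52 and 0.811 in Sirt1KO, 16.0, 20.2 and 19.8 in Sirt1KO Otx2KD and 6.93, 5.92 and 8.33 in EpiLC. WT ESC and Sirt1KO Otx2KD overlapped, EpiLC lay between and Sirt1KO was lowest. Acta2 changed by log2 -2.93 ± 0.16 in Sirt1KO (adjusted p = 7.9e-09) and 3.09 ± 0.16 from there (adjusted p = 8.23e-09). Tagln, a smooth muscle actin-binding protein often measured beside Acta2, did not pass in Sirt1KO (log2 0.15 ± 0.15, adjusted p = 0.4) or from there in Sirt1KO Otx2KD (0.28 ± 0.15, adjusted p = 0.124). The Sirt1KO libraries of Tagln, at 13.9, 10.7 and 8.16 FPKM, were far apart. Without replicate 3 the rise in Sirt1KO passed (0.33, adjusted p = 0.0292), and without replicate 1 the rise from there did (0.45, adjusted p = 0.00586). The Tagln locus spans 15.2 times the RefSeq gene and overlaps Pcsk7, so its value may hold reads of that gene.

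S100a4, a calcium-binding protein also known as fibroblast-specific protein, stood at 6.01, 7.10 and 6.90 FPKM in WT ESC, 1.59, 1.40 and 0.864 in Sirt1KO, 3.55, 4.79 and 4.95 in Sirt1KO Otx2KD and 11.8, 8.51 and 11.3 in EpiLC. No groups overlapped, with EpiLC highest. It fell in Sirt1KO (log2 -1.76 ± 0.14, adjusted p = 1.67e-07) and regained 1.25 ± 0.14 (adjusted p = 6.05e-06), still below WT ESC. Thy1, a surface glycoprotein of fibroblasts and other cells, gave 6.00, 6.93 and 6.99 FPKM in WT ESC, 6.34, 4.70 and 4.96 in Sirt1KO, 13.0, 11.5 and 14.4 in Sirt1KO Otx2KD and 14.8, 15.4 and 16.2 in EpiLC. Thy1 in Sirt1KO overlapped WT ESC, and its fall (log2 -0.28 ± 0.10, adjusted p = 0.0232) was lost without WT ESC replicate 2 or 3 or Sirt1KO replicate 2 or 3 (adjusted p up to 0.106). The rise in Sirt1KO Otx2KD was log2 1.15 ± 0.10 (adjusted p = 2.7e-07).

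The remaining mesenchymal members moved by less than 1 log2 unit in each comparison on the log2(FPKM + 1) scale. At low levels that scale makes changes come out too small. Caldesmon (Cald1), an actin-binding regulator of contraction whose locus covers 0.37 times the RefSeq gene, had means of 8.22 ± 0.381, 13.1 ± 0.711, 6.68 ± 0.723 and 10.9 ± 0.481 FPKM in WT ESC, EpiLC, Sirt1KO and Sirt1KO Otx2KD. The receptor Pdgfrb, a mark of pericytes and fibroblasts, and Twist2, a transcription factor of mesenchyme, stayed at or below 1.12 FPKM in the mean of every group. From Sirt1KO to Sirt1KO Otx2KD, the mean of Pdgfrb rose 7.38-fold and that of Twist2 32.0-fold, from levels near 0. Twist2 was listed at 0 in 2 of 3 Sirt1KO libraries. Twist1, its relative, was highest in EpiLC (4.73 ± 0.545 FPKM, against 2.05 ± 0.260 in WT ESC). Its fall in Sirt1KO (log2 -0.38 ± 0.12, adjusted p = 0.0128) overlapped WT ESC and was lost without WT ESC replicate 3 (-0.32, adjusted p = 0.0553) or Sirt1KO replicate 3 (-0.28, adjusted p = 0.0668). Igfbp7, Thy1 and Twist1 were the course members that lost a call in some fit with 1 library left out, and the other 28 kept both calls in all 12 such fits.

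**Figure D2:**
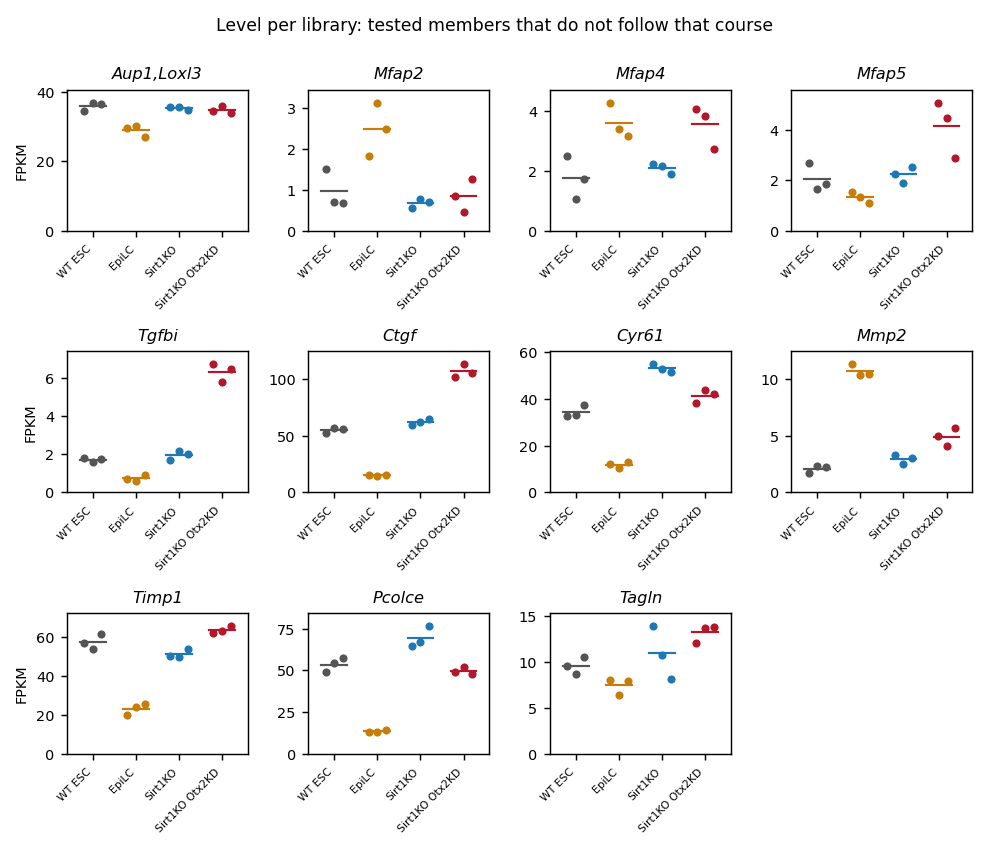
FPKM in each library (points) and group means (lines) for the 11 tested members that did not follow the course, with a linear axis from 0 in each panel. Cyr61 and Pcolce are highest in Sirt1KO, Tgfbi and Ctgf in Sirt1KO Otx2KD, and Mmp2 in EpiLC, while Timp1, Ctgf, Cyr61 and Pcolce are lowest in EpiLC.

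Set against WT ESC, most members were higher in Sirt1KO Otx2KD. In that comparison 29 members were higher and 4 lower (all tested loci: 27.1% and 26.8%), with a median of 0.51 against -0.00 over all loci. Of the 31 members on the course, 22 ended above WT ESC and 4 below (Loxl4, Fbln1, Vcan and S100a4). The other 5 (Bgn, Fn1, Thbs1, Acta2 and Twist1) did not pass in this comparison. These 31 were picked in part by their rise in Sirt1KO Otx2KD, so the shares over all tested loci are no base for this split. The same split over all loci on the course is not given here. By log2 change, Postn exceeded WT ESC the most (1.98 ± 0.09), followed by Tgfbi (1.44 ± 0.09), Timp2 (1.35 ± 0.09) and Dcn (1.27 ± 0.13). No member had its lowest group mean in Sirt1KO Otx2KD, 23 had their highest there and 28 had their lowest in Sirt1KO. Highest and lowest groups were not counted over all tested loci here, so these member counts have no base beside them. The small rises of Twist2 (log2 0.37 ± 0.14) and Tagln (0.43 ± 0.15) over WT ESC were lost under several alternatives, and that of Cald1 with chromosome medians removed (0.17, adjusted p = 0.0706).

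**Figure D3:**
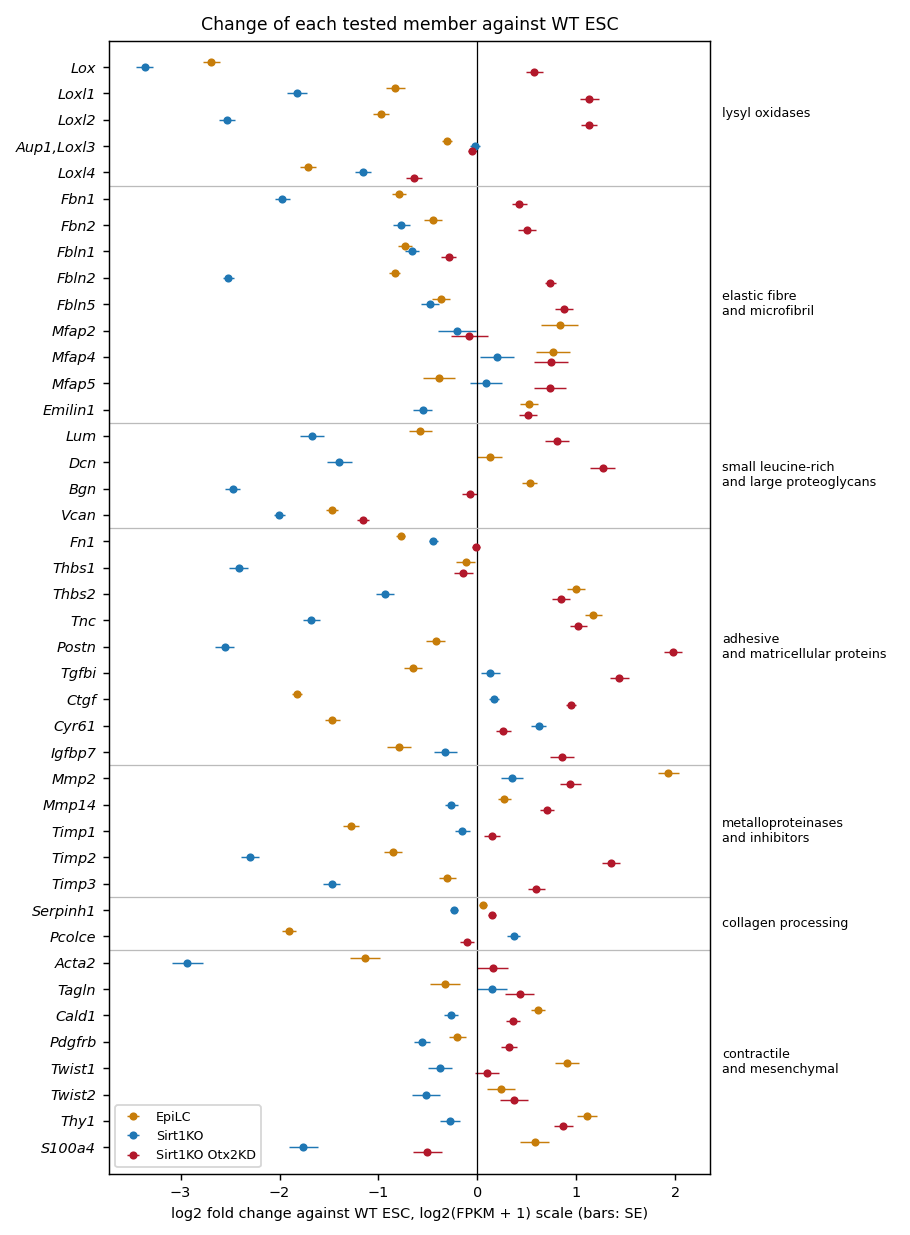
Log2 fold change against WT ESC on the log2(FPKM + 1) scale (x axis, bars are SE) of the 42 tested members, ordered by role (y axis), in EpiLC, Sirt1KO and Sirt1KO Otx2KD (n = 3 libraries per group). Sirt1KO points lie left of 0 for most members and Sirt1KO Otx2KD points right of it, while EpiLC points fall on both sides.

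In EpiLC the members split. Against WT ESC, 12 rose and 25 fell, beside 35.8% and 38.8% of all tested loci, with a median log2 change of -0.38 against -0.02 over all loci. The lysyl oxidases all fell (5 of 5, the merged Loxl3 locus included), as did the inhibitors Timp1, Timp2 and Timp3. The deepest falls were those of Lox (log2 -2.69 ± 0.09), Pcolce (-1.91 ± 0.07), Ctgf (-1.82 ± 0.05) and Loxl4 (-1.71 ± 0.08). The rises were led by Mmp2 (1.93 ± 0.11), Tnc (1.17 ± 0.09), Thy1 (1.11 ± 0.10) and Thbs2 (0.99 ± 0.09). Of the 31 members on the Sirt1KO course, 9 rose in EpiLC, 18 fell and 4 did not pass. Bgn, Tnc, Thbs2, Thy1, Twist1, Cald1, Mmp14, Emilin1 and S100a4 were the 9, each lower in Sirt1KO and higher in EpiLC than in WT ESC. The 3 comparisons with WT ESC share its libraries, so their values are given side by side and no likeness between them was tested. The EpiLC calls of Mfap5 and Pdgfrb were lost under several alternatives, and Serpinh1 passed with quantile normalization (0.19) or chromosome medians removed (0.12).

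The fibrillar, fibril-associated and type VI collagens, which these proteins crosslink, coat and process, were counted from a separate list. Of 11 collagen genes, 10 fell in Sirt1KO and 0 rose, beside 32.7% and 32.4% of all tested loci. All 11 rose in Sirt1KO Otx2KD against Sirt1KO, beside 31.1% of all tested loci. The medians of the collagens were log2 -1.99 and 2.54, and 0.58 against WT ESC. Over all loci they were 0.01, -0.01 and -0.00. Col3a1 (type III collagen) changed by log2 -3.59 ± 0.05 in Sirt1KO and 4.62 ± 0.05 from there, and Col1a2 (type I) by -3.40 ± 0.08 and 4.46 ± 0.08. Col5a1 and Col5a2 (type V) changed by -2.50 ± 0.07 and -2.49 ± 0.08 in Sirt1KO and by 3.08 ± 0.07 and 3.45 ± 0.08 from there. In EpiLC, 1 of the 11 rose and 6 fell, beside 35.8% and 38.8% of all tested loci.

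Genes of signalling routes known to act on matrix genes moved in both directions. Their counts stand beside shares over all tested loci of 32.4% higher and 32.7% lower in Sirt1KO, and 31.1% and 31.5% from there to Sirt1KO Otx2KD. For TGF-beta, whose ligands are stored in the matrix and whose receptors act through Smad proteins, 15 loci were tested. In Sirt1KO 2 rose and 7 fell (median -0.25), and from there 7 rose and 2 fell in Sirt1KO Otx2KD (median 0.34). The receptor Tgfbr2 fell (log2 -1.94 ± 0.10) and then rose (2.50 ± 0.10). The signal transducer Smad3 rose in Sirt1KO (0.88 ± 0.07) and again in Sirt1KO Otx2KD (0.34 ± 0.07), and Skil, a Smad repressor, fell in Sirt1KO (-1.05 ± 0.05) and did not pass from there (0.02 ± 0.05, adjusted p = 0.742).

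For YAP and TEAD, the factors that drive Ctgf and Cyr61, 11 loci were tested: 4 rose and 5 fell in Sirt1KO (median -0.12), and 5 rose and 2 fell from there (median 0.23). With so few loci, these counts are not read as apart from the shares over all loci. Tead4, a DNA-binding partner of YAP, rose in Sirt1KO (1.51 ± 0.09) and fell from there (-0.65 ± 0.09), and Amotl2, a YAP regulator, rose (1.05 ± 0.05) and did not pass from there (-0.10 ± 0.05, adjusted p = 0.0824). Tead2 and the YAP relative Wwtr1 fell (-0.43 ± 0.04 and -0.33 ± 0.05) and rose (0.56 ± 0.04 and 0.48 ± 0.05). For serum response factor and actin genes, 12 loci were tested, with 8 rises and 1 fall in Sirt1KO (median 0.47) and 3 rises and 5 falls from there (median -0.09). The contractile genes Flna (0.73 ± 0.04), Tpm1 (0.99 ± 0.07) and Myl9 (2.03 ± 0.18) rose in Sirt1KO, where Acta2 fell. Actg2, the smooth muscle gamma actin, was the 1 that fell there (log2 -0.96). In EpiLC, where 35.8% of all tested loci rose and 38.8% fell, the TGF-beta list had 5 rises and 5 falls of 15, close to those shares. The YAP and TEAD list had 6 and 3 of 11 there, and the serum response factor and actin list 9 and 1 of 12.

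Because many members are made in quantity by fibroblasts and smooth muscle, markers of other cell types were summed per library. The labels name gelatin as the ESC substrate and no other cells. Of 10 fibroblast or feeder markers, 7 were tested. Of these, 5 (Col1a1, Col1a2, Col3a1, Col6a1 and Col6a2) are also in the collagen list, so the lists are not independent. The others are Fstl1 and Prrx1. All 7 fell in Sirt1KO (32.7% of all tested loci) and rose from there in Sirt1KO Otx2KD (31.1%). All 7 were also higher in Sirt1KO Otx2KD than in WT ESC (27.1%). Their summed level was 120.0 to 142 FPKM in WT ESC, 77.7 to 78.6 in EpiLC, 22.1 to 24.0 in Sirt1KO and 241 to 244 in Sirt1KO Otx2KD, the same order as for Lox, Loxl1 and Postn. The 3 untested markers of this list were low: Pdgfra stood between 0.134 and 0.868 FPKM in all 12 libraries, Fap was listed at 0 in Sirt1KO and was at most 0.179 elsewhere, and Meox1 was at most 0.167. The part of other cells in the changes of the members was not tested.

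The sums of the other marker lists had other orders of groups. The smooth muscle and pericyte sum was 10.7 to 12.6 FPKM in WT ESC and higher in Sirt1KO (17.2 to 21.1) and in Sirt1KO Otx2KD (14.4 to 16.5), with Myh11 at most 0.04 in Sirt1KO and Rgs5 listed at 0 there. Of its 4 tested markers, 3 rose and 1 fell in Sirt1KO, beside 32.4% and 32.7% of all tested loci. The endothelial sum went from 64.2 in WT ESC to 44.9 in Sirt1KO and 39.4 in Sirt1KO Otx2KD on average, and was almost all Pecam1, which ESC express, with Emcn listed at 0 in every library. The endoderm sum was 541, 330.3 and 469 FPKM in the same order and mostly Sparc, with Gata6, Sox17 and Foxa2 below 1 in every group mean. The trophoblast sum (84.5, 37.9 and 58.9) was mostly Tfap2c, and the haematopoietic sum (45.7, 52.5 and 34.2) came from Cd68 and Laptm5, with Ptprc near 0. In EpiLC these sums were 21.8 for smooth muscle, 21.7 for endothelial, 143 for endoderm, 8.73 for trophoblast and 13.5 for haematopoietic markers.

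**Figure D4:**
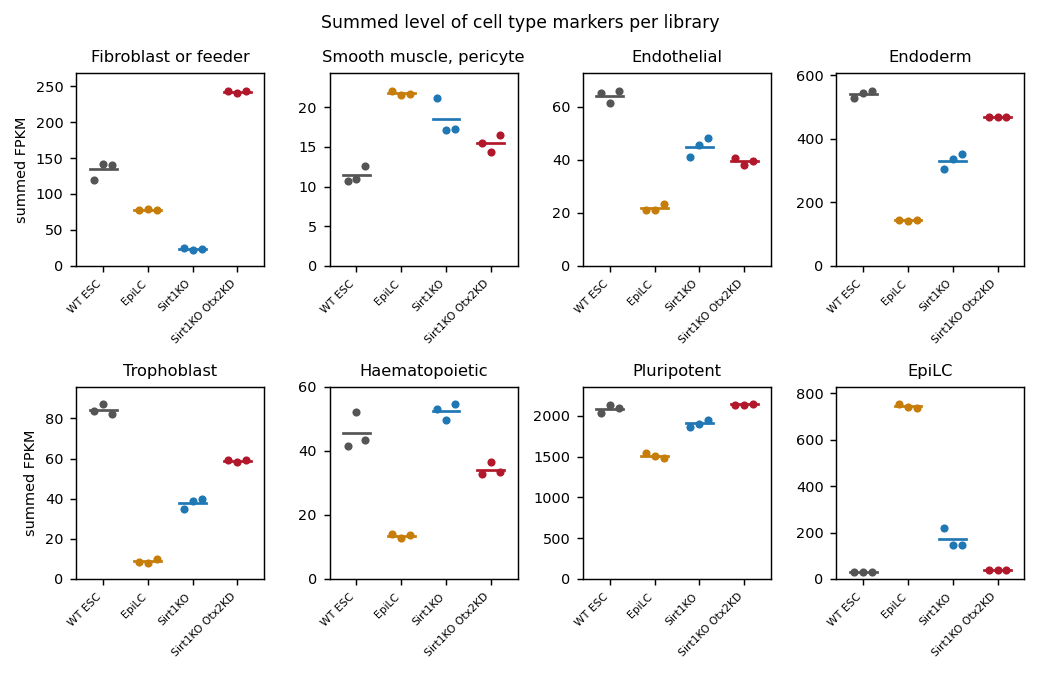
Summed FPKM of each list of cell type markers per library (points) and group means (lines), with a linear axis from 0 in each panel. The fibroblast or feeder sum is lowest in the 3 Sirt1KO libraries (22.1 to 24.0) and highest in the 3 Sirt1KO Otx2KD libraries (241 to 244); the other sums have other orders of groups.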

How the data were processed

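Per the labels' protocols, RNA of 12 mouse samples was purified by oligo-dT and prepared with the TruSeq protocol. Per the submitters' processing notes, the tools were TopHat, Cufflinks and Cuffdiff and the build mm9, with no versions given, and the counting strand is not given in the sources used here. The authors deposited 1 FPKM value for each locus and library, and how they scaled libraries is not given in the sources used here. Locus coordinates come from the same files, with 1 added to the start, which such files count from 0.

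Groups come from the sample titles. No 2 libraries held the same values. FPKM was converted to log2(FPKM + 1) for the 12320 named loci with at least 1 FPKM in at least 3 libraries, and 4778 unnamed loci entered an alternative. One linear model with 4 group means and all 12 libraries was used (limma 3.58.1, R 4.3.3, 8 residual degrees of freedom), with robust, trended empirical Bayes variances, and p-values were adjusted over all tested loci by Benjamini-Hochberg. The scripts were tested on simulated data. Depth is known only relative to WT ESC replicate 1, so values carry no counting interval.

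The members, gene lists and tests were chosen with earlier results of these data known. Every library value is given for members called in at least 1 comparison whose group means differ by at least 1 log2 unit and whose highest mean is at least 5 FPKM. From each pathway list, the 4 genes with the largest absolute t in Sirt1KO against WT ESC are named. Actg2 was named after its value was seen, as were single genes that dominate or are near 0 in a marker list. Names missing from the files (Oct6, Ajuba and Plet1) are not analysed here. Alternatives changed the pseudocount (0.1), the filter, the scaling, chromosome medians, the groups fitted, a replicate block, unnamed loci and the libraries.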

Additional observations from a re-analysis of the deposited data

How the results depend on the processing

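The counts of members per comparison were recomputed with a pseudocount of 0.1, without a filter, with a filter of 5 FPKM, with quantile normalization, median-of-ratios scaling, chromosome medians removed, only the groups compared, a replicate block, unnamed loci and each library left out. They stayed within 1.5 times the reported counts, except that 7 members rose in EpiLC under the filter of 5 FPKM, which leaves 31 members to test. Requiring at least 1 log2 unit of change gave 3 higher and 8 lower in EpiLC, 0 and 17 in Sirt1KO, 22 and 0 in Sirt1KO Otx2KD against Sirt1KO, 7 and 1 against WT ESC, and 15 on the course. With 1 library left out, the counts were 12 to 13 higher and 23 to 26 lower in EpiLC, 3 to 5 and 28 to 32 in Sirt1KO, 36 to 38 and 2 in Sirt1KO Otx2KD against Sirt1KO, 27 to 30 and 4 against WT ESC, and 28 to 32 on the course. Of 3484 member values under alternatives, 3413 kept their direction and side of the threshold, 51 lost and 19 gained a call, and 1 called value changed sign: Mmp2 in Sirt1KO, at -0.11 with chromosome medians removed, the cause being the chromosome 8 median of 0.46 that this takes out.

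No sign of pairing by replicate number was seen. Deviations from the group means correlated between -0.107 and 0.17 over 18 pairs of same-numbered libraries of different groups, with 2 pairs over 0.1. Over 36 pairs with different numbers, the correlations lay between -0.184 and 0.201, with 4 over 0.1. Of the 12 libraries, 3 correlated best with their own number. Weak correlations in so few libraries cannot show that no pairing existed. With the replicate number as a block, 12 members rose and 24 fell in EpiLC, 4 and 32 in Sirt1KO, 37 and 2 in Sirt1KO Otx2KD against Sirt1KO and 29 and 4 against WT ESC, with 32 on the course. The files do not state depth, which limits the precision of low members.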
